A study of Mus musculus with 3 samples.

Results

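The 10 genes Acta2, Tagln, Myh11, Actg2, Des, Cnn1, Myl9, Smtn, Lmod1 and Synpo2, which encode parts of the contractile apparatus of smooth muscle, were followed in mouse kidney. They were chosen by name: every probe set whose single platform gene symbol was one of the 10 was taken, which gave 17 of the 45101 probe sets of the array. In all, 12 of the 17 passed a filter on low values, and each of the 10 genes kept at least 1 probe set. The largest mean differences were those of Acta2 and Tagln, which were 2.18-fold and 2.29-fold above the control kidney in 1 acetate-fed mouse and 1.16-fold and 1.10-fold above it in the other.

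Total RNA from kidneys of 3 C57BL/6 mice was hybridised to single-colour expression arrays, 1 array per mouse. The acetate group was 2 mice that drank water with 200 mM acetate, a short-chain fatty acid, for 6 weeks from 3 weeks of age, and they are called acetate-fed mouse 1 and acetate-fed mouse 2 as in their labels. The control group was 1 mouse, labelled as control for the agent; the design's starting age of 3 weeks holds for it too. The labels give neither sex nor which part of the kidney, with or without pelvis, was taken. Values are the deposited log2 expression values, on which a difference of 1 is 2-fold. The arrays' medians were 4.94 in acetate-fed mouse 1, 4.93 in acetate-fed mouse 2 and 4.91 in the control mouse. Both acetate-fed mice were set against the same control array, so their differences share whatever was particular to that 1 kidney, and no error can be given for the control. Values of different probe sets are not comparable with each other, since each binds its own target.

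Smooth muscle contracts when calcium activates myosin light chain kinase and the phosphorylated myosin pulls on actin filaments anchored in dense bodies. Serum response factor and its coactivator myocardin switch on most of these genes by binding a DNA element called the CArG box. In the kidney, such cells form the wall of arteries and arterioles and the muscle of the renal pelvis and ureter, whose peristalsis moves urine. Pericytes and mesangial cells carry part of the same set of genes, and fibroblasts that turn into myofibroblasts gain some of it, above all Acta2 and Tagln. Gamma smooth muscle actin (Actg2) and desmin (Des) are in contrast typical of visceral muscle, although desmin is also made by mesangial cells and by injured podocytes.

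Acta2 encodes alpha smooth muscle actin, the main actin of vascular muscle and the standard marker of myofibroblasts. Its probe set with the highest mean read 10.97 in acetate-fed mouse 1 and 10.06 in acetate-fed mouse 2 (10.51 ± 0.64, SD, n = 2), against 9.84 in the control mouse. Both acetate-fed values were above the control, with acetate-fed mouse 1 far above the other arrays. The difference was 1.13 in acetate-fed mouse 1, a size reached by 1.37% of the 13473 tested genes in that mouse, and 0.22 in acetate-fed mouse 2, reached by 11.3%. Over both mice it averaged 0.67 ± 0.67 (SE), which did not pass limma's test (adjusted p = 0.871). By its suffix this probe set can bind more than 1 transcript, and the other sarcomeric and smooth muscle actins are near relatives. Binding of other actin transcripts to it was not tested. The 2 other Acta2 probe sets lay below the filter, 1 at 2.94 on all 3 arrays and 1 at 2.88 and 2.93 in the acetate-fed mice, against 2.82 in the control mouse.

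Actg2 encodes gamma smooth muscle actin, the actin of visceral muscle such as that of ureter, bladder and gut. It read 6.10 in acetate-fed mouse 1 and 4.53 in acetate-fed mouse 2 (5.32 ± 1.11, SD, n = 2), against 5.38 in the control mouse. The control therefore lay between the acetate-fed mice, 1.65-fold below acetate-fed mouse 1 and 1.80-fold above acetate-fed mouse 2. The mean difference was -0.06 ± 1.16 (SE; limma adjusted p = 1). The gap between the acetate-fed mice was the widest among the 10 genes, 2.96-fold, and 0.104% of all tested genes had one as large in the same direction. Acta2 and Actg2 thus parted in acetate-fed mouse 2, where Acta2 was 0.22 above and Actg2 0.85 below the control on the log2 scale. This rests on 1 low reading of Actg2, since 4.53 lay below that array's median of 4.93 and near the filter's bound of 4.21.

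**Figure D1:**
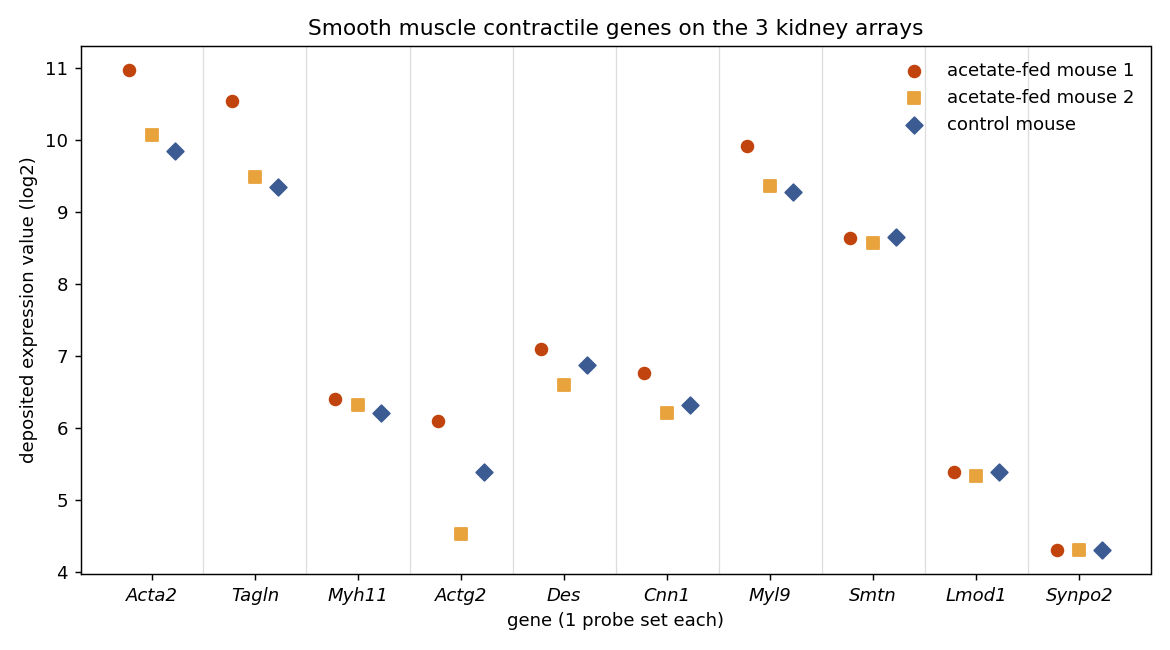
Deposited log2 expression value (vertical axis) of the representative probe set of each contractile gene (horizontal axis), with 1 point per array for acetate-fed mouse 1, acetate-fed mouse 2 and the control mouse; no error bars, since each point is 1 array. Acetate-fed mouse 1 stands above both other arrays at Acta2, Tagln, Actg2, Des, Cnn1 and Myl9, and at Actg2 acetate-fed mouse 2 (4.53) lies below the control (5.38).

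Among the proteins that bind the actin filament, transgelin (Tagln, also called SM22), an early smooth muscle marker, read 10.54 in acetate-fed mouse 1 and 9.48 in acetate-fed mouse 2 (10.01 ± 0.75, SD, n = 2), against 9.34 in the control mouse. Acetate-fed mouse 2 and the control lay close together, and acetate-fed mouse 1 stood above both. The differences were 1.20 in acetate-fed mouse 1, reached by 1.18% of tested genes, and 0.13 in acetate-fed mouse 2, reached by 17.4%. Calponin 1 (Cnn1), which damps the myosin ATPase and marks mature contractile cells, read 6.76 in acetate-fed mouse 1 and 6.20 in acetate-fed mouse 2, against 6.31 in the control mouse. The control again lay between the acetate-fed mice, with differences of 0.45 and -0.11. Smoothelin (Smtn), found in fully contractile muscle, read 8.63 and 8.57 in the acetate-fed mice, against 8.65 in the control mouse. Leiomodin 1 (Lmod1), which nucleates actin filaments in smooth muscle, read 5.39 and 5.33 in the acetate-fed mice, against 5.38 in the control mouse. Neither Smtn nor Lmod1 differed by more than 0.08 in either mouse, and their sign in acetate-fed mouse 1 turned with quantile normalization (and for Lmod1 also with median centring). In limma's test the adjusted p was 0.871 for Tagln, 1 for Cnn1, 0.852 for Smtn and 0.932 for Lmod1.

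The myosin genes also differed in size. Myl9, the regulatory light chain whose phosphorylation starts contraction, read 9.91 in acetate-fed mouse 1 and 9.36 in acetate-fed mouse 2 (9.63 ± 0.39, SD, n = 2), against 9.28 in the control mouse. It was 1.55-fold and 1.05-fold above the control (limma adjusted p = 0.871), the same order of arrays as for Acta2 and Tagln. Myh11, the smooth muscle myosin heavy chain and the marker most specific to contractile smooth muscle, read 6.40 and 6.31 in the acetate-fed mice (6.35 ± 0.06, SD, n = 2), against 6.21 in the control mouse. The difference was 0.19 in acetate-fed mouse 1 and 0.10 in acetate-fed mouse 2, and 14.4% and 21.4% of tested genes reached these sizes (limma adjusted p = 0.597). Another tested Myh11 probe set read 4.75 on all 3 arrays. Where Acta2 and Tagln were over 2-fold higher in acetate-fed mouse 1, Myh11 was 1.14-fold higher.

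Of the genes for the cell's scaffold, desmin (Des), the intermediate filament of muscle cells, read 7.10 in acetate-fed mouse 1 and 6.59 in acetate-fed mouse 2, against 6.87 in the control mouse. Like Actg2, it was above the control in acetate-fed mouse 1 (by 0.23) and below it in acetate-fed mouse 2 (difference -0.28; limma adjusted p = 1 over both). A second Des probe set, below the filter, read 4.07 on all 3 arrays. Synpo2, which encodes synaptopodin 2 (myopodin), an actin-bundling protein of the Z-disc and dense body, had 4 probe sets with values between 3.78 and 4.40, and its representative read 4.30 on all 3 arrays. The other tested Synpo2 probe set read 4.40 and 4.24 in the acetate-fed mice, against 4.24 in the control mouse. With no filter on low values, 1 Synpo2 probe set passed limma's test as lower (3.78 and 3.78 in the acetate-fed mice, against 3.97 in the control mouse; adjusted p = 0.00116), with exactly tied acetate-fed values; 7.51% of all 45037 probe sets passed as lower in that fit.

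Acta2 and Myl9 are shown with their promoter windows because these hold the CArG letters that the serum response factor reads. The windows run from 250 bases before to 50 bases after the gene start, are credited to RefSeq (build GRCm38.p6) and are written 5′ to 3′ on the gene's strand; capitals mark CArG boxes, either full or with 1 base of the A and T core replaced by C or G.
Acta2, chr19:34255324-34255623, minus strand: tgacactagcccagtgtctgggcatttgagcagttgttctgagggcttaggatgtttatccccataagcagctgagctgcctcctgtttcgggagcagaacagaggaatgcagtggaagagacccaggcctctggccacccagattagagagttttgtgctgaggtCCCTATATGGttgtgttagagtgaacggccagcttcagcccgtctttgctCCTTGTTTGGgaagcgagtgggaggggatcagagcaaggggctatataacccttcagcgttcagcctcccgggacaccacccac
Myl9, chr2:156775214-156775513, plus strand: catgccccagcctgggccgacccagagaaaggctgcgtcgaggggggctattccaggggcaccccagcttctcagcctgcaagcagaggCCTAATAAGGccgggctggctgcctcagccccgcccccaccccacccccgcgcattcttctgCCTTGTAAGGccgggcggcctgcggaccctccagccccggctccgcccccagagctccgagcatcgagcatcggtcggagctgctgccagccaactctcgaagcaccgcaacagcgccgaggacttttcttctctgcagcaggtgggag

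Acta2 held 2 such boxes with 1 base off, at 84 to 75 and at 34 to 25 bases before the start. Myl9 held a full box, CCTAATAAGG, at 161 to 152 bases and one with 1 base off, CCTTGTAAGG, at 99 to 90 bases before the start. The motif reads the same on both strands. Windows were at hand for 7 of the 10 genes, and those of Des, Cnn1, Smtn, Lmod1 and Synpo2 held neither form. Across 32851 windows of all genes, 1.63% held a full box, 8.5% one with 1 base off and 9.98% either. A match describes these letters only. Tagln, Myh11 and Actg2 have no window in the table used.

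Counted together, 4 of the 10 genes (Acta2, Tagln, Myl9 and Myh11) were higher than the control in both acetate-fed mice, against 26.0% of all tested genes, and 1 (Smtn) was lower in both, against 30.9%. In acetate-fed mouse 1 taken alone 8 of 10 lay above the control (33.1% of tested genes), and in acetate-fed mouse 2 taken alone 4 of 10 (36.5%). No gene was at least 2-fold higher in both mice, where 0.408% of tested genes were, and none at least 2-fold lower, where 0.460% were. In acetate-fed mouse 1 alone, 2 of 10 (Acta2 and Tagln) were at least 2-fold higher, against 1.77% of tested genes, and in acetate-fed mouse 2 alone 0 of 10 were, against 0.601%. Another 4 (Actg2, Des, Cnn1 and Lmod1) were above the control in acetate-fed mouse 1 and below it in acetate-fed mouse 2, where 3.47% of tested genes were; for Lmod1 this rests on 0.01 and -0.05. The median over the 10 genes was 0.34 in acetate-fed mouse 1 and -0.03 in acetate-fed mouse 2, beside 0.00 and 0.00 over all tested genes.

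The acetate-fed mice can also be set against each other, which leaves the control array out. Acetate-fed mouse 1 was above acetate-fed mouse 2 at 9 of the 10 genes and tied with it at Synpo2. Among the 13473 tested genes, 4215 (31.3%) were higher in acetate-fed mouse 1, 5236 were lower and 4022 were exactly tied, so ties lower that share. The gap was 1.56 for Actg2, 1.06 for Tagln, 0.91 for Acta2, 0.57 for Cnn1, 0.55 for Myl9 and 0.52 for Des, and at most 0.09 for Myh11, Smtn and Lmod1, on the log2 scale. For Acta2, Tagln, Myl9, Cnn1, Des and Actg2 the mice of the same treatment thus differed from each other by more than acetate-fed mouse 2 differed from the control.

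**Figure D2:**
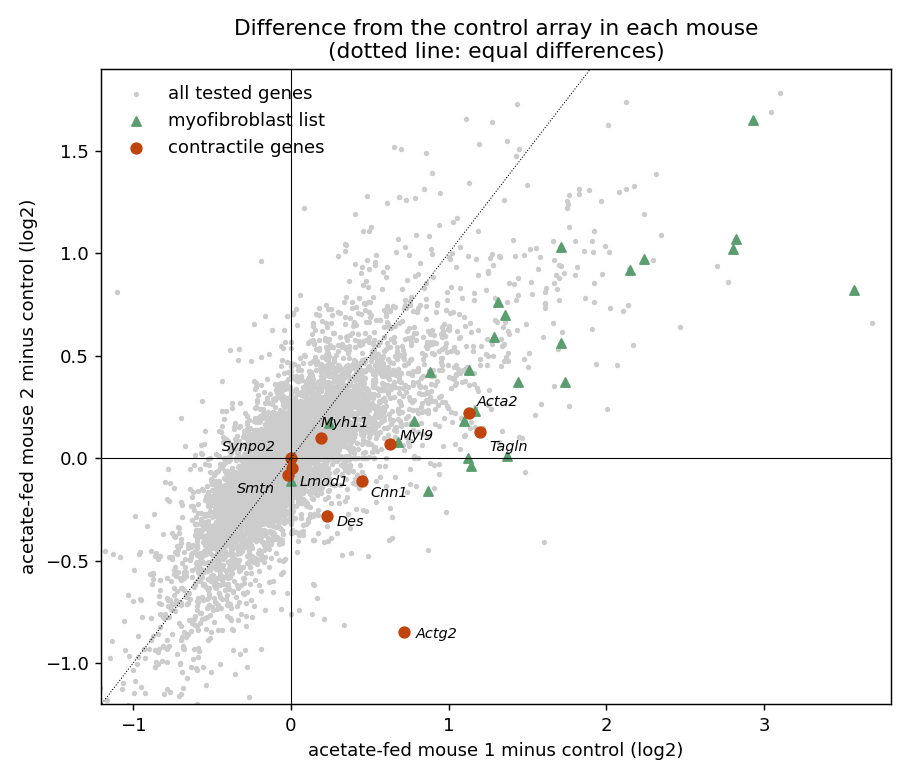
Log2 difference from the control array in acetate-fed mouse 1 (horizontal axis) and in acetate-fed mouse 2 (vertical axis), with 1 point per gene: grey for tested genes, green triangles for the myofibroblast list, red for the contractile genes; genes outside the drawn range are not shown, and both axes share the control array. The contractile genes lie along or below the dotted line of equal differences, with Tagln at 1.20 and 0.13 and Actg2 at 0.72 and -0.85.

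Across all tested probe sets limma called 5.18% higher and 5.35% lower in acetate-fed kidneys at an adjusted p under 0.05, and 0 of the 12 tested probe sets of the contractile genes in either direction (0 also at an unadjusted p under 0.05). The fit has 1 residual degree of freedom, from the acetate-fed pair, and 92.3% of its calls fell on probe sets with identical values in the acetate-fed pair, which make up 33.7% of those tested. With tied pairs left out, Acta2 (adjusted p = 0.0192) and Tagln (adjusted p = 0.0411) passed limma's test as higher, 2 of 10 probe sets where 6.55% of all tested did, and 0 passed as lower, where 4.97% did; that fit takes its spread mostly from other probe sets, with 26.5 prior degrees of freedom, and so reads the mean difference more than the mice's likeness.

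Among other genes of the smooth muscle machinery, 27 were tested. Of these, 14 were higher than the control in both acetate-fed mice and 5 lower, against 26.0% and 30.9% of all tested genes. Synm, counted among the 14 (4.32 and 4.24, against 4.17 in the control mouse), passed the filter's bound of 4.21 only through the acetate-fed mice. The median difference over the 27 genes was 0.15 in acetate-fed mouse 1 and 0.04 in acetate-fed mouse 2. Compared with acetate-fed mouse 2, 19 were higher in acetate-fed mouse 1, 2 lower and 6 tied, where 31.3% of all tested genes were higher. Filamin A (Flna), which crosslinks actin, read 8.33 and 7.47 in the acetate-fed mice, against 6.96 in the control mouse. Calponin 2 (Cnn2), the broadly expressed relative of Cnn1, read 9.64 and 8.98, against 8.55 in the control mouse. Alpha-actinin 1 (Actn1), an anchor of actin filaments, read 9.35 and 8.79, against 8.43 in the control mouse. These 3 are made by many cell types, and in each both acetate-fed arrays lay above the control. Closer to muscle itself, the myosin light chain kinase gene Mylk read 9.65 and 9.23 in the acetate-fed mice, against 9.16 in the control mouse. The tropomyosins Tpm1 and Tpm2 and caldesmon (Cald1), picked after their values were seen, were 1.80-fold, 1.49-fold and 1.55-fold higher in acetate-fed mouse 1 and 1.17-fold, 1.03-fold and 1.14-fold in acetate-fed mouse 2. The 5 genes lower in both mice were Itga7, Aoc3, Pln, Hspb6 and Ppp1r14a, the last 4 also picked after their values were seen. Phospholamban (Pln), which restrains the calcium pump of the sarcoplasmic reticulum, read 4.92 and 4.90 in the acetate-fed mice, against 5.17 in the control mouse, and the amine oxidase gene Aoc3 5.35 and 5.09, against 5.59 in the control mouse. Ppp1r14a, an inhibitor of myosin phosphatase, and the small heat shock protein gene Hspb6 were at most 0.10 below the control in either mouse. In limma's test 1 gene of the list passed as higher (Mustn1, by 0.12; adjusted p = 0.0162) and 1 as lower (Itga7, the muscle laminin receptor subunit, difference -0.45; adjusted p = 0.00906), both with tied acetate-fed values, beside 5.18% and 5.35% of all tested probe sets. Both calls were lost after quantile normalization and after median centring, where limma called no probe set of the array. With tied pairs left out, 8 of 21 genes of the list passed as higher and 0 as lower, beside 6.55% and 4.97% of all probe sets in that fit.

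**Figure D3:**
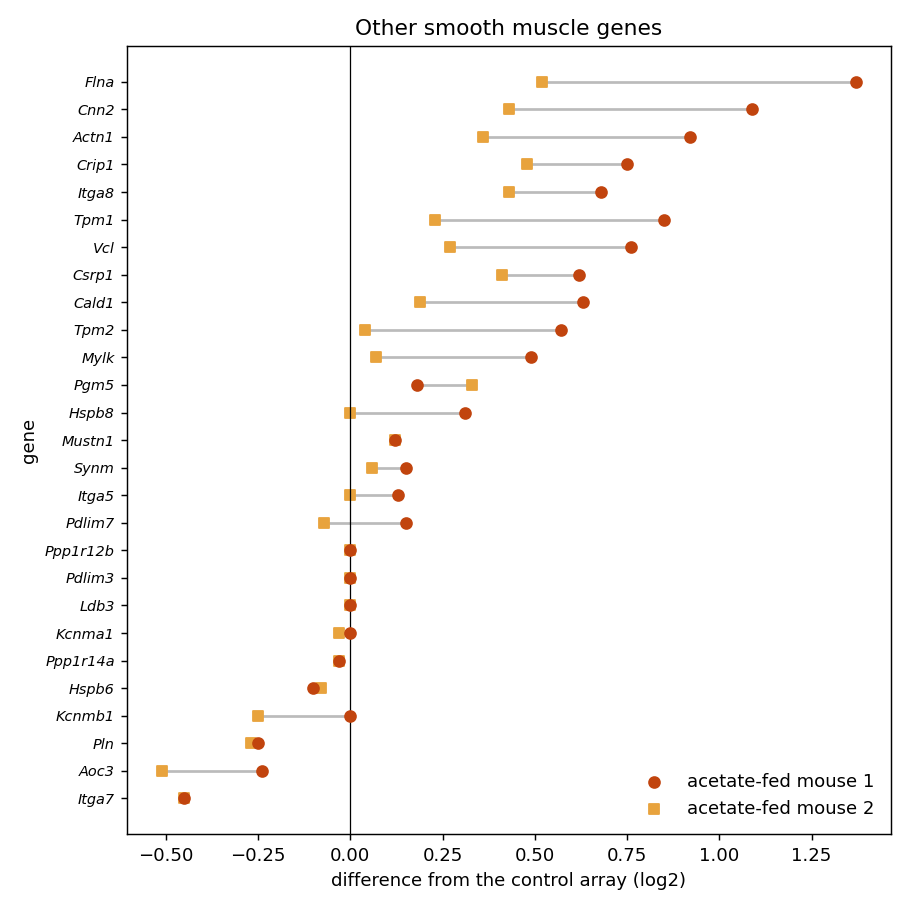
Log2 difference from the control array (horizontal axis) for 27 further smooth muscle genes (vertical axis), with acetate-fed mouse 1 as circles and acetate-fed mouse 2 as squares joined by a line. Flna has the largest differences, 1.37 and 0.52, and Itga7 is below the control by the same amount in both mice (-0.45).

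Regulators of this set of genes were read next. Srf, serum response factor, read 7.77 on all 3 arrays, and myocardin (Myocd), its muscle-specific coactivator, read 4.17 on all 3 and lay below the filter. Mrtfa, a coactivator of serum response factor that senses free actin, read 6.69 in both acetate-fed mice and 6.37 in the control mouse (limma adjusted p = 0.00972, with tied acetate-fed values, and a call lost like the others after quantile normalization and median centring). Klf4, a repressor of the contractile program, read 7.05 and 7.08 in the acetate-fed mice, against 6.62 in the control mouse (limma adjusted p = 0.107). Of 18 tested regulators, 9 lay above the control in both acetate-fed mice and 3 below it, against 26.0% and 30.9% of all tested genes. Their medians were 0.14 in acetate-fed mouse 1 and 0.02 in acetate-fed mouse 2.

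Markers of the muscle coat of pelvis and ureter were then read beside the contractile genes. Tbx18, the transcription factor of ureteral mesenchyme, read 3.21 on all 3 arrays, and Tshz3, needed for ureteral muscle to differentiate, read 3.25 and 3.09 in the acetate-fed mice, against 3.02 in the control mouse; both lay below the filter. Of 13 tested genes of this list, 2 were higher in both mice (Kit and Ano1, which mark pacemaker-like cells) and 2 lower (Ptch1 and Pcp4), against 26.0% and 30.9% of all tested genes. Another 4 had the same value on all 3 arrays, as 2418 of the 13473 tested genes did. The median was 0.00 in each mouse. Kit read 5.68 and 5.52 in the acetate-fed mice, against 5.11 in the control mouse, and Ptch1, the hedgehog receptor, 7.84 and 7.90, against 8.32 in the control mouse. The urothelium that lines the pelvis gave mixed values: 4 of 13 tested genes lay above the control in both mice and 3 below it. Of all tested genes 26.0% and 30.9% did. The 4 were Krt15, Krt5, Cldn4 (by 0.91 in acetate-fed mouse 1 and 0.60 in acetate-fed mouse 2) and Krt14 (by 0.97 and 0.27). Keratin 15 (Krt15), of basal epithelium, was the 1 gene of the list at least 2-fold higher in both mice, at 8.06 and 7.43 in the acetate-fed mice, against 6.30 in the control mouse. Keratin 5 (Krt5), of basal urothelium, read 6.95 and 6.58 in the acetate-fed mice, against 5.95 in the control mouse, while the uroplakin gene Upk2, of the mature surface, read 6.97 on all 3 arrays, and Upk3a, another uroplakin gene picked after its values were seen, 6.33 and 6.14, against 6.60 in the control mouse. Over the urothelial list values ran from 5.50 to 8.58 in acetate-fed mouse 1, from 4.70 to 7.73 in acetate-fed mouse 2 and from 4.70 to 8.25 in the control mouse. How much pelvis or ureter each sample held was not tested.

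Genes that mark myofibroblasts lay mostly above the control. Of 25 tested, 21 were higher than the control in both acetate-fed mice and 0 lower, 4 (Tnc, Col3a1, Col1a1 and Tgfbi) at least 2-fold in both, and 25 of 25 were higher in acetate-fed mouse 1 than in acetate-fed mouse 2. Over all tested genes these shares were 26.0%, 30.9%, 0.408% and 31.3%. Ltbp2 (5.28 and 3.91, against 3.55 in the control mouse) passed the filter only through acetate-fed mouse 1. Fap (3.61 and 3.38, against 3.61) did not pass it. Their median difference was 1.31 in acetate-fed mouse 1 and 0.42 in acetate-fed mouse 2. Tenascin C (Tnc), a matrix protein of wound beds, read 7.92 and 6.64 in the acetate-fed mice, against 4.99 in the control mouse. Periostin (Postn), secreted by activated fibroblasts, read 7.51 and 6.43, against 6.07 in the control mouse, and the PDGF receptor gene Pdgfrb, of pericytes and fibroblasts, 8.12 and 7.20, against 7.02 in the control mouse. In acetate-fed mouse 2, Postn and Pdgfrb were 0.37 and 0.18 above the control, beside 0.22 for Acta2 and 0.13 for Tagln. Over the myofibroblast list this difference ran from -0.16 to 1.65. Not every member rose much, as 2 genes picked after their values were seen show. Lrrc15 read 4.59 and 4.48 in the acetate-fed mice, against 4.59 in the control mouse, and Cthrc1 4.67 and 4.61, against 4.44 in the control mouse. By limma's test 0 of the 25 passed (0 also at an unadjusted p under 0.05); with tied pairs left out 17 passed as higher, beside 6.55% of all probe sets in that fit. Of 16 genes of resident fibroblasts, 11 lay above the control in both mice and 3 below it, against 26.0% and 30.9% of all tested genes. Their medians were 0.67 in acetate-fed mouse 1 and 0.21 in acetate-fed mouse 2. Mfap4, an elastic fibre protein with the largest rise of this list, read 7.64 and 7.05 in the acetate-fed mice, against 5.75 in the control mouse. Of the 3 lower genes, Nt5e read 8.42 and 8.15, against 8.83 in the control mouse, and Pi16 6.97 and 6.91, against 7.40. By limma's test 2 of the 16 passed as higher and 0 as lower, beside 5.18% and 5.35% of all tested probe sets. With tied pairs left out, 7 of 15 passed as higher and 2 as lower, beside 6.55% and 4.97% of all probe sets in that fit.

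Of 14 tested genes from a list for pericytes, mesangium and renin cells, 6 lay above the control in both mice and 3 below it. Of all tested genes 26.0% and 30.9% did. The listed genes Ren1, Akr1b7 and Rergl had no probe set with that single symbol, so renin itself was not read. The 14 include Des, which is also a contractile gene of this report, and Pdgfrb, which is also in the myofibroblast list. Rgs5, a pericyte marker, read 9.65 and 9.31 in the acetate-fed mice, against 8.37 in the control mouse, while Cspg4 (NG2), another marker of mural cells picked after its values were seen, read 6.86 and 6.56, against 7.05 in the control mouse. Higd1b, counted among the 6 (4.31 and 4.75, against 4.09 in the control mouse), passed the filter's bound of 4.21 only through the acetate-fed mice. In these whole-tissue samples, a different number of cells of a type and a different amount of RNA per cell cannot be told apart. Of 19 non-muscle relatives of the contractile proteins, 16 lay above the control in both mice and 0 below it, against 26.0% and 30.9% of all tested genes. Their medians were 0.27 in acetate-fed mouse 1 and 0.19 in acetate-fed mouse 2. Cytoplasmic beta-actin (Actb) read 13.73 and 13.50 in the acetate-fed mice, against 13.44 in the control mouse, and non-muscle myosin heavy chain 10 (Myh10) 9.10 and 9.04, against 8.51 in the control mouse. Tropomyosin 4 (Tpm4) read 10.32 and 9.73 in the acetate-fed mice, against 9.29 in the control mouse, and it and Cnn2, with differences of 1.04 and 1.09, were the 2 genes of this list at least 2-fold higher in acetate-fed mouse 1.

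**Figure D4:**
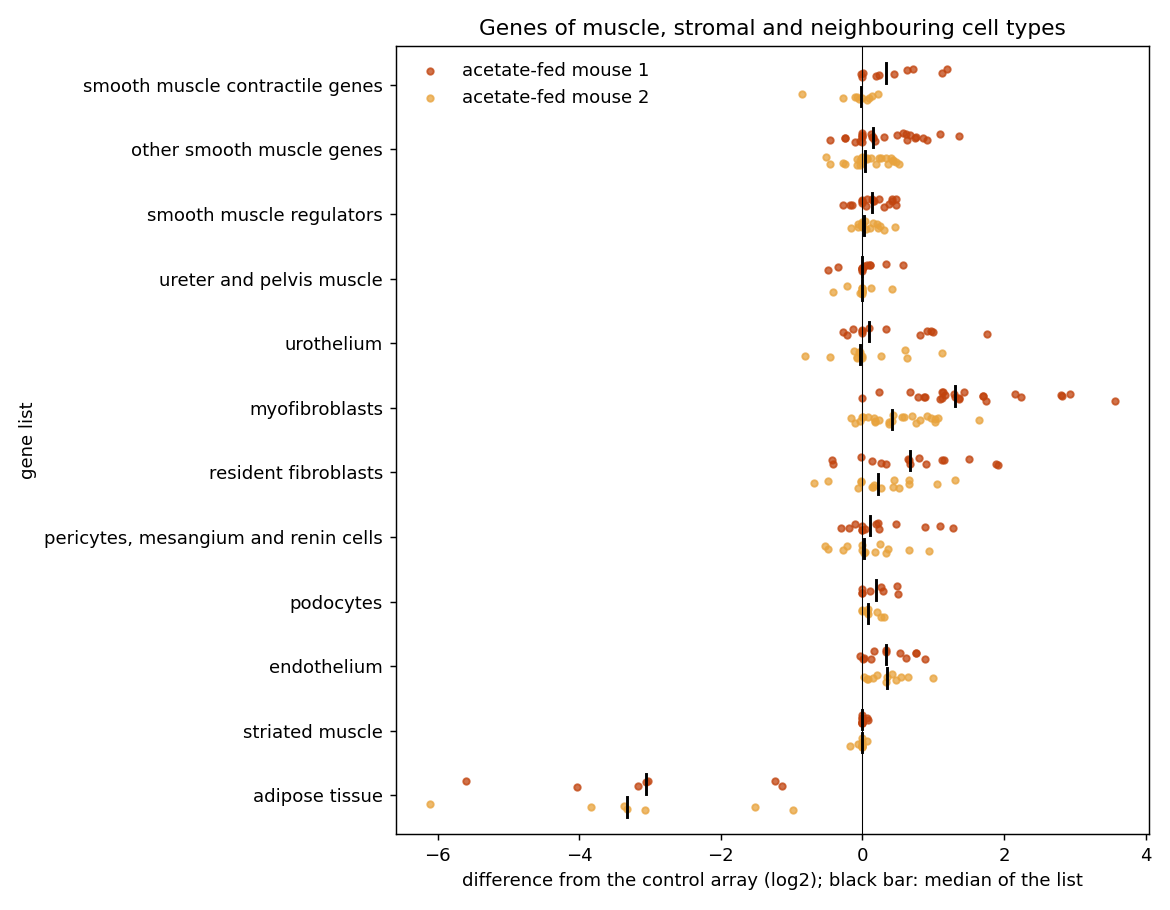
Log2 difference from the control array (horizontal axis) for the tested genes of 12 lists (vertical axis), with 1 point per gene and mouse, acetate-fed mouse 1 above acetate-fed mouse 2 in each list, and a black bar at the list's median. The myofibroblast medians (1.31 and 0.42) lie to the right of the contractile ones (0.34 and -0.03), the ureter and pelvis muscle medians are at 0.00, and adipose genes lie far below the control.

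Other cells that could bring muscle-type transcripts were checked by their markers. Of 20 striated muscle genes 10 passed the filter, their values ran from 4.24 to 5.42 in acetate-fed mouse 1, from 4.17 to 5.28 in acetate-fed mouse 2 and from 4.24 to 5.34 in the control mouse, and 7 of the 10 had the same value on all 3 arrays; muscle creatine kinase (Ckm) read 4.76 on each. Of 8 tested podocyte genes, 5 lay above the control in both mice and 0 below it, against 26.0% and 30.9% of all tested genes. Nephrin (Nphs1) read 7.26 and 7.23 in the acetate-fed mice, against 7.15 in the control mouse. The part of podocytes in the values of Des was not tested. Of 12 endothelial genes, 11 lay above the control in both mice, against 26.0% of all tested genes, with medians of 0.33 in acetate-fed mouse 1 and 0.35 in acetate-fed mouse 2. In all, 5 were higher in acetate-fed mouse 1 than in acetate-fed mouse 2, against 31.3% of all tested genes. Vwf, counted among the 11 (4.92 and 5.03, against 4.03 in the control mouse), passed the filter's bound of 4.21 only through the acetate-fed mice. Adipose genes set the control apart from both acetate-fed mice: 7 of 7 tested were lower in both, against 30.9% of all tested genes. Adiponectin (Adipoq) read 4.38 and 3.87 in the acetate-fed mice, against 9.98 in the control mouse, and the brown fat gene Ucp1 4.50 and 4.70, against 8.53. The filter shaped this count: Adipoq, Cidec and Adig, with acetate-fed means of 4.12, 3.22 and 3.94, passed its bound of 4.21 only through the control. Lep, at 2.67 on all 3 arrays, did not pass. Fat tissue holds vessels with muscle walls, and its part in the control values of the contractile genes was not tested. Tubule markers were present on all 3 arrays, and of 10 tested 4 lay above the control in both mice and 5 below it. Among all tested genes the shares were 26.0% and 30.9%. Uromodulin (Umod), of the thick ascending limb, read 13.67 and 13.64 in the acetate-fed mice, against 13.53 in the control mouse. The water channel gene Aqp2, of the collecting duct, read 11.93 and 12.55, against 11.43 in the control mouse, and the proximal tubule receptor gene Cubn 11.59 and 11.40, against 11.98 in the control mouse. The part that the piece of kidney taken had in the values of the contractile genes was not tested.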

How the data were processed

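The authors deposited log2 values for 45101 probe sets on 3 arrays. The submitters' processing notes name MAS5 without a version, and how the log2 values were summarised is not given in the sources used here. Exactly equal values on all 3 arrays occur at 30.0% of probe sets and on the acetate-fed pair at 44.9%. Background, saturation and detection calls are not known for these values, and having 3 arrays limits the precision. The labels do not say more of the mice than that they are separate. With 1 control array, p-values rest on the spread of the acetate-fed pair and on that taken from other probe sets, and hold no spread of the control.

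Gene names came from the platform annotation; 34945 had 1 gene symbol, 932 several and 9160 none, and 34741 of the single symbols matched RefSeq by Entrez identifier. Affymetrix control probe sets (64) did not enter any test. The upper 60% by mean value (27022 probe sets, mean of at least 4.21) were tested with limma 3.58.1 in R 4.3.3 (lmFit, eBayes with trend, acetate minus control, two-sided, Benjamini-Hochberg over all tested probe sets). Where a gene had several tested probe sets, the one with the highest mean stood for it. Tables were made with Python 3.11.15 and pandas 2.3.3, figures with matplotlib 3.10.9.

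Genes named were all 10 contractile genes, up to 4 per other list with the largest mean difference (same direction in both mice first), those past limma or at least 2-fold from the control in both mice, and textbook markers. Not all of these are printed. Tpm1, Tpm2, Cald1, Aoc3, Pln, Hspb6, Ppp1r14a, Upk3a and Cspg4 were added after their values were seen. So were Lrrc15, Cthrc1, Nt5e and Pi16, and, to show the filter's part, Ltbp2, Fap, Lep and Synm. The members and lists were chosen with earlier results of these data known. Alternatives were other normalizations, filters, pseudocounts of 16 and 32, no variance trend, tied pairs left out, the mean of a gene's probe sets, and leaving out each acetate-fed mouse.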

Additional observations from a re-analysis of the deposited data

How the results depend on the processing

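Over 11 alternative settings, 121 of 130 recomputed values were a like count or lay within the spread between the mice, with no test involved for the gene-level ones. For single genes with 1 acetate-fed mouse left out this holds by definition, so those values do not speak to stability. Sign was not part of the rule: Actg2 went from -0.06 to -0.85 or 0.72 and still counted as within the spread. The member limma counts were also bound to stay where limma called no probe set of the array. When each acetate-fed mouse was left out in turn, between 0 and 2 genes were at least 2-fold higher (0 with both mice), between 4 and 8 were higher than the control (4 with both), and the median over the 10 genes lay between -0.03 and 0.34 (0.07 with both); the upper values are those of acetate-fed mouse 1. With exactly tied acetate-fed pairs left out, 2 of 10 probe sets (Acta2 and Tagln) passed limma's test as higher, against 0 of 12; that fit tests fewer probe sets and has 26.5 prior degrees of freedom against 0.362. With no filter, 1 of 17 (a Synpo2 probe set) passed as lower, against 0 of 12. Over all probe sets limma made 2846 calls with the values as deposited, 6523 with no filter and 2064 without tied pairs, but 0 after quantile normalization, after median centring and in the upper 40% by mean (4289, 4959 and 3513 at an unadjusted p under 0.05). In the upper 40%, 7 of the 10 genes remained. The cause of the other changes was not tested. Synpo2 moved to between -0.02 and 0.04 and Myh11 to 0.07 (mean of its probe sets). No paired analysis was possible because the control has 1 array and the labels give it no replicate number.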
